A study of Mus musculus with 19 samples.

Results

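Hippocampal gene expression was compared between wild-type mice fed ibuprofen chow and wild-type mice fed control chow. The groups, taken from the array titles, held 5 and 4 arrays, which are 9 of the 19 arrays of the series. Both groups were wild-type littermates of APP-PS1 mice on the C57BL/6J strain, and all were 6 months old when hippocampal RNA was taken. The treated mice ate chow with ibuprofen at 375 ppm from 3 to 6 months of age and the controls ate the same formulation without it, both freely, so the dose each mouse took is not given. None of these 9 mice carried the APPSwe and PS1deltaE9 transgenes. The other 10 arrays, from APP-PS1 mice on the same chows, entered the fit and serve as the comparison at the end. The comparison asks how expression stands with the drug where no amyloid transgene is present. The labels tie no array to a litter, sex, cage or scan, and do not say that each array is a separate animal, so p-values measure the spread between these arrays. The hippocampus was measured as bulk tissue, in which fewer cells of a type and less RNA per cell cannot be told apart.

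Ibuprofen blocks the cyclooxygenases, the enzymes that turn arachidonic acid freed by phospholipases into prostaglandin H, from which the prostaglandins and thromboxane are made. In the hippocampus the inducible cyclooxygenase, encoded by Ptgs2, is made mainly by excitatory neurons, where synaptic activity raises it. The drug acts on the enzyme proteins, whereas arrays read messenger RNA. Ibuprofen is also known to bind peroxisome proliferator-activated receptors and to be joined to coenzyme A.

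All values are log2 intensities per gene, and differences are ibuprofen minus control chow on that scale. Levels of different probe sets are not compared, except to mark readings below a list of genes that this tissue should not express. The mean of dentate granule cell markers was 9.86 ± 0.051 in the controls (SD, n = 4) and 10.01 ± 0.14 with ibuprofen (SD, n = 5), and that of CA1 markers lay at 10.62 and 10.77. Lists of genes that this tissue should not express gave 6.03 and 6.02 for olfactory and vomeronasal receptors and 7.54 and 7.50 for liver and skeletal muscle genes. Xist, the transcript of the inactive X chromosome, ran from 5.33 to 5.82 and the Y-linked gene Uty from 9.82 to 10.73 over the 9 arrays. Every Xist reading lay below the mean of the olfactory and vomeronasal list, so all 9 arrays read as male tissue. Choroid plexus markers varied most, with array means of 7.85 to 9.32 on control and 7.74 to 10.2 on ibuprofen chow. With their mean as a covariate 2391 genes had an unadjusted p under 0.05, against 2198 without it.

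Ibuprofen replicates 1 and 5 stood apart. Their median correlations with the other arrays over all probe sets were 0.9873 and 0.9739, against 0.9942 to 0.9951 on control chow and 0.9933 to 0.9955 in the other 3 ibuprofen arrays. In them the genes brighter than the median lay 0.11 and 0.23 above the level of those genes over all arrays, while the other 7 wild-type arrays lay between -0.042 and 0.010. The shift depended on brightness and was greatest in the middle of the range, as the plot by gene level shows. APP-PS1 control chow replicate 1 had the same kind of shift (0.12, median correlation 0.9895). RNA quality, dissection and scan are not in the labels, and their part was not tested. The values that lead each account below are therefore also given without ibuprofen replicates 1 and 5.

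**Figure D1:**
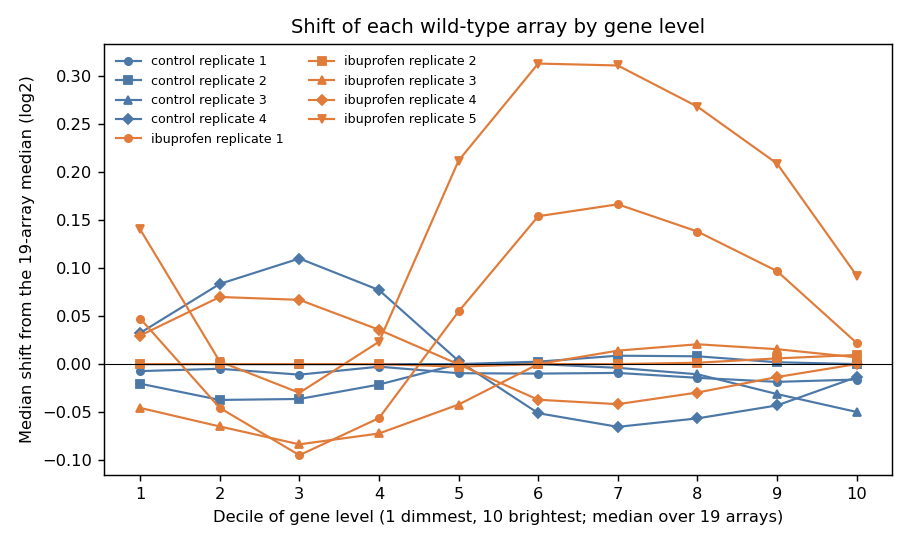
Median shift of each wild-type array from the median of all 19 arrays (log2, vertical axis) in 10 equal groups of genes ordered by level (horizontal axis), with control chow in blue and ibuprofen chow in orange and 1 line per array. Ibuprofen replicates 1 and 5 leave the other arrays in the brighter deciles, with 0.17 and 0.31 in decile 7, while the other 7 arrays stay between -0.065 and 0.014 there.

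No gene differed between the chows in wild-type hippocampus at an adjusted p under 0.05 (limma over 19938 genes, 0% called), and none did without ibuprofen replicates 1 and 5. The smallest adjusted p was 0.432 with all arrays and 0.169 without those arrays, so every difference printed below for wild-type mice with all arrays has a limma adjusted p of 0.432 or more. At an unadjusted p under 0.05 there were 2198 genes (11%), of which 1810 (9.08% of all genes) lay higher and 388 (1.95%) lower on ibuprofen. The higher share of these was 82.3%, but 64.5% after quantile normalization and 51.4% with each array centred on its median. The median difference over all genes was 0.052, and 66.8% of genes lay above 0. Genes brighter than the median had a median difference of 0.086, and the dimmer genes -0.0008. Above 0 lay 8370 of 9969 brighter and 4955 of 9969 dimmer genes, and most lists below hold mainly brighter genes or mainly dimmer ones.

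The count at an unadjusted p under 0.05 changed with the arrays kept, and fewer arrays also give less power. No pair of arrays other than ibuprofen replicates 1 and 5 was left out, so the part of their shift in the count was not tested. Leaving out ibuprofen replicates 1 and 5 left 471 genes at an unadjusted p under 0.05 (2.36%, 1.43% higher and 0.928% lower). That share is below the 0.05 that such a threshold gives where no gene differs. The median difference over all genes was then 0.0022. Leaving out replicate 5 alone gave 926 and without replicate 1 alone 1218. It was 4564 without ibuprofen replicate 4, 1242 without control replicate 3 and 1382 without control replicate 4. A stricter description is the count of genes for which every ibuprofen array lay above every control array. There were 387 (1.94%), and 60 (0.301%) for which every ibuprofen array lay below. In the 3 ibuprofen arrays other than replicates 1 and 5 these shares were 2.88% and 1.89%, and 51.3% of genes lay above 0. Fewer arrays overlap less often by chance alone, so these shares cannot be read as a rise over those with all arrays.

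The gene with the smallest p was Mir488, a microRNA gene, followed among microRNA genes by Mir181b-2 and Mirlet7c-1. MicroRNAs are cut from hairpins in longer transcripts, and bases 2 to 8 of the mature strand, the seed, pair with target messages. Which RNA these probe sets read (hairpin, longer transcript or mature strand) was not tested, and the labels name a whole-transcript labelling kit. The mature strands of these 3, of Mir181a-2, which shares a seed with Mir181b-2 and lies beside it, and of Mir212, the microRNA gene among the smallest p on the lower side, are shown so that shared seeds can be seen. They are written 5′ to 3′ from RefSeq (build GRCm38.p6) with the seed in capitals.
mmu-miR-488-5p: cCCAGAUAauagcacucucaa
mmu-miR-488-3p: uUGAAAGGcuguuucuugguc
mmu-miR-181b-5p: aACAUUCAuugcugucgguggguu
mmu-miR-181a-5p: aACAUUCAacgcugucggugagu
mmu-let-7c-5p: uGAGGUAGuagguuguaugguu
mmu-miR-212-3p: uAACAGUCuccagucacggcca

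Mir488 (probe set 10350921) read 4.81, 4.64, 4.67 and 4.74 on control chow and 4.84, 5.10, 5.26, 4.96 and 5.43 on ibuprofen chow, a difference of 0.40 ± 0.085 (SE). All 5 ibuprofen arrays lay above the 4 control arrays, and the lowest of them by little. Every reading was below the mean of the olfactory and vomeronasal list (6.03 and 6.02). Whether this probe set reads above background was not tested. The difference was 0.39 without replicates 1 and 5. Its hairpin lies in the span of Astn1, a neuronal adhesion gene, which differed by 0.10 ± 0.051 (SE).

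Mir181b-2 read 6.68, 6.88, 6.60 and 6.74 on control chow and 7.33, 7.23, 7.01, 6.99 and 7.49 on ibuprofen chow, a difference of 0.48 ± 0.11 (SE), or 0.35 without replicates 1 and 5. The groups did not overlap. Mir181a-2 read 6.77, 6.73, 6.61 and 6.76 and 6.86, 6.82, 6.90, 6.95 and 7.04, a difference of 0.20 ± 0.076 (SE), again without overlap. Both lie in the spans of Nr6a1, a nuclear receptor gene, and of Nr6a1os, found without regard to strand. Nr6a1 differed by -0.015 ± 0.062 (SE). The 5p mature strands of the pair share the seed ACAUUCA, while their 3p strands have different seeds (UCACUGA for Mir181b-2 and CCACCGA for Mir181a-2). The difference of Nr6a1 was smaller than its standard error, and which transcript holds the hairpins was not tested.

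Mirlet7c-1 read 6.10, 6.18, 5.84 and 5.79 on control chow and 6.94, 6.57, 6.89, 5.95 and 6.85 on ibuprofen chow, a difference of 0.66 ± 0.18 (SE), and 0.49 without replicates 1 and 5. Ibuprofen replicate 4 fell within the control range, so these groups overlapped. Mir212, which neuronal activity induces together with its neighbour Mir132, read 9.04, 9.17, 9.18 and 9.27 and 8.78, 9.07, 8.87, 9.05 and 8.84, a difference of -0.24 ± 0.078 (SE) with slight overlap, and Mir132 gave -0.074 ± 0.081 (SE). Of the 297 microRNA genes measured, 38 lay higher and 17 lower at an unadjusted p under 0.05, which is 12.8% higher and 5.72% lower beside 9.08% and 1.95% of all genes. Only 35 of them were brighter than the median, and of the dimmer genes 4.14% lay higher and 323 of 9969 lower. Without replicates 1 and 5 the microRNA counts were 15 higher and 2 lower, beside 1.43% and 0.928% of all genes. For 7 of the microRNA genes (2.36%, beside 1.94% of all genes and 0.542% of the dimmer genes) every ibuprofen array lay above every control array. They were Mir488, Mir181b-2, Mir181a-2, Mir16-2, Mir140, Mir411 and Mir495. Of these, Mir488, Mir16-2, Mir140 and Mir495 had both group means below that of the olfactory and vomeronasal list. The median difference of the microRNA genes was 0.018, under that of all genes and above the -0.0008 of the dimmer genes. This group was looked at after its values were seen.

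The other genes of smallest p on the higher side follow. Iqgap2, a scaffold for the actin cytoskeleton, read 11.35, 11.46, 11.27 and 11.38 on control chow and 11.56, 11.55, 11.62, 11.53 and 11.69 on ibuprofen chow, a difference of 0.23 ± 0.049 (SE). Epha6, an ephrin receptor, read 11.73, 11.66, 11.69 and 11.73 and 11.94, 11.90, 11.92, 11.87 and 11.82, a difference of 0.19 ± 0.044 (SE). Neither gene overlapped between the chows, and without replicates 1 and 5 the differences were 0.20 and 0.19. Plcl1, a phospholipase C relative without catalytic activity that binds GABA-A receptor partners, read 9.47, 9.54, 9.41 and 9.46 and 9.86, 9.67, 9.79, 9.71 and 9.92, a difference of 0.32 ± 0.072 (SE), and 0.25 without those arrays. Again every ibuprofen array was higher.

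Galntl6, a glycosyltransferase relative, differed by 0.34 ± 0.084 (SE), and Cntnap5c, a neurexin-family adhesion gene, by 0.27 ± 0.069 (SE). Crot, the peroxisomal carnitine octanoyltransferase that shortens and exports fatty acids, differed by 0.29 ± 0.073 (SE) and Atp8a1, a flippase of aminophospholipids, by 0.15 ± 0.040 (SE). Mrpl46, a protein of the mitochondrial ribosome, differed by 0.37 ± 0.093 (SE). For these 5 genes the groups did not overlap either. Without ibuprofen replicates 1 and 5 the differences were 0.25, 0.25, 0.22, 0.12 and 0.28 in that order. Olfr592, an olfactory receptor gene that should be silent here, differed by 0.32 ± 0.084 (SE) with overlap, or 0.21 without those arrays.

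On the lower side the smallest p belonged to Ctxn3, which encodes a small neuronal membrane protein of the cortexin family. It read 8.22, 8.23, 8.26 and 8.20 on control chow and 7.38, 7.96, 7.96, 7.89 and 7.97 on ibuprofen chow, a difference of -0.40 ± 0.10 (SE). The groups did not overlap. Replicate 1 was far the lowest, and without replicates 1 and 5 the difference was -0.29. Tnfrsf11b, the decoy receptor osteoprotegerin, differed by -0.34 ± 0.093 (SE), Cyp4b1, a cytochrome P450, by -0.26 ± 0.081 (SE), Fam124a by -0.23 ± 0.075 (SE) and the T cell surface gene Cd7 by -0.35 ± 0.11 (SE). The groups did not overlap for these 4 genes. Without replicates 1 and 5 their differences were -0.25, -0.23, -0.17 and -0.17. The remaining lower genes of smallest p were Zp4-ps (-0.33), Zar1l (-0.32), Npn2 (-0.27), Tsga8 (-0.30), Rec114 (-0.30) and Ofcc1 (-0.24), several of them known from germ cells. Without replicates 1 and 5 they gave -0.18, -0.24, -0.15, -0.15, -0.16 and -0.15 in that order. From the lists of genes of other tissues, the vomeronasal receptor gene Vmn1r48 gave -0.21 ± 0.071 (SE) with no overlap and the liver gene Fgg 0.19 ± 0.066 (SE) with overlap (-0.16 and 0.13 without those arrays).

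**Figure D2:**
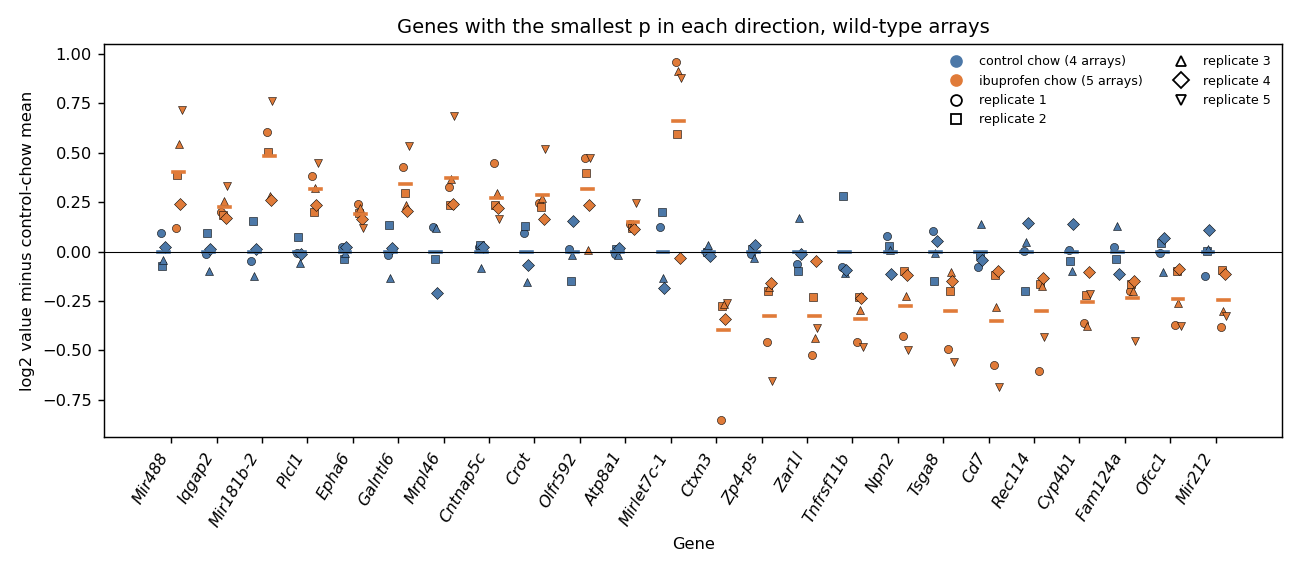
Log2 value minus the control-chow mean (vertical axis) of the 12 genes with the smallest p on the higher side and the 12 on the lower side (horizontal axis), with 1 point per wild-type array shaped by replicate and a bar at each group mean. Ibuprofen replicates 1 and 5 are often the most extreme points, for example in Ctxn3 (replicate 1 at 7.38) and Mir488 (replicate 5 at 5.43), while Epha6 differs by 0.19 with all 5 ibuprofen arrays close together.

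In the pathway the drug blocks, no gene passed the adjusted threshold. Of 20 measured genes of prostaglandin synthesis and breakdown, 1 (Ptgr1) lay higher at an unadjusted p under 0.05 and 0 lower, beside 9.08% and 1.95% of all genes. The groups overlapped for all of them, where 1.94% of all genes did not overlap on the higher side. Their median difference was 0.057, close to the 0.052 of all genes, -0.026 without ibuprofen replicates 1 and 5 and -0.010 with centred arrays. Ptgs2, the inducible cyclooxygenase, read 10.98, 10.90, 10.83 and 10.93 on control chow and 11.45, 11.11, 10.87, 10.95 and 11.21 on ibuprofen chow, a difference of 0.21 ± 0.11 (SE). Ibuprofen replicates 1, 2 and 5 lay above all controls and replicates 3 and 4 within the control range. Without replicates 1 and 5 the difference was 0.069. The gene of the other cyclooxygenase was not analysed here.

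Upstream, the arachidonate-releasing phospholipase gene Pla2g4a differed by 0.062 ± 0.14 (SE), Pla2g6 by 0.091 ± 0.090 (SE) and Pla2g5 by 0.029 ± 0.32 (SE), and each took the other sign without replicates 1 and 5 (-0.13, -0.063 and -0.34). Pla2g7, an enzyme that breaks down platelet-activating factor, differed by 0.13 ± 0.062 (SE). Pla2g4c, Pla2g4e and Pla2g10 gave -0.0016, -0.076 and -0.15. Among the terminal synthases, Ptgds, which makes prostaglandin D and is abundant in meninges and choroid plexus, read 12.42, 13.54, 12.75 and 12.87 on control chow and 12.05, 12.46, 12.16, 12.50 and 12.99 on ibuprofen chow, a difference of -0.46 ± 0.26 (SE). The 4 ibuprofen arrays other than replicate 5 lay at or below 12.50, but the controls spread from 12.42 to 13.54. The mean of mural and meningeal genes read 8.84, 9.50, 8.87 and 8.97 on control and 8.80, 8.81, 8.80, 8.90 and 9.68 on ibuprofen chow, with its highest array in each group the same as for Ptgds. Their part in the Ptgds values was not tested.

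The prostaglandin E synthase genes Ptges, Ptges2 and Ptges3 differed by -0.024 ± 0.13 (SE), 0.063 ± 0.079 (SE) and -0.089 ± 0.12 (SE). For Ptges the value without replicates 1 and 5 was -0.23, where the 3 remaining ibuprofen arrays lay below every control. Tbxas1, the thromboxane synthase, differed by 0.17 ± 0.089 (SE), Hpgds by 0.052 ± 0.093 (SE) and the prostacyclin synthase gene Ptgis by -0.13 ± 0.14 (SE), or 0.023, -0.032 and -0.16 without those arrays. Of the enzymes that inactivate prostaglandins, Hpgd differed by 0.17 ± 0.089 (SE), Ptgr1 by 0.25 ± 0.11 (SE) and Ptgr2 by 0.17 ± 0.10 (SE). These 3 were 0.061, 0.10 and 0.064 without replicates 1 and 5. The reductase genes Cbr1 and Prxl2b gave 0.10 and -0.0061.

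The receptors gave small differences on both sides of 0. Of 12 receptor and transporter genes 5 lay above 0, with a median of -0.057 (-0.0079 without replicates 1 and 5 and -0.12 with centred arrays), 1 (Slco2a1) higher and 1 (Ptgdr2) lower at an unadjusted p under 0.05, beside the same shares of all genes. The prostaglandin E receptor genes Ptger1, Ptger2, Ptger3 and Ptger4 differed by 0.061 ± 0.081 (SE), -0.15 ± 0.076 (SE), 0.0045 ± 0.084 (SE) and 0.021 ± 0.066 (SE), the last -0.046 with centred arrays. The prostaglandin D receptor genes Ptgdr and Ptgdr2 gave -0.077 ± 0.10 (SE) and -0.16 ± 0.076 (SE). Ptgfr, the prostaglandin F receptor gene, read 7.30, 7.36, 7.32 and 7.34 on control chow and 6.94, 7.08, 6.97, 7.20 and 7.58 on ibuprofen chow, a difference of -0.18 ± 0.11 (SE). Replicate 5 alone lay above the controls, and without replicates 1 and 5 the difference was -0.24 with no overlap. The prostacyclin receptor gene Ptgir gave -0.14 ± 0.10 (SE), the thromboxane receptor gene Tbxa2r -0.038 ± 0.085 (SE) and Ptgfrn, a partner of the F receptor, -0.16 ± 0.090 (SE). The transporters Slco2a1 and Abcc4, which take up and export prostaglandins, gave 0.24 ± 0.10 (SE) and 0.24 ± 0.14 (SE), and 0.082 and 0.029 without replicates 1 and 5.

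**Figure D3:**
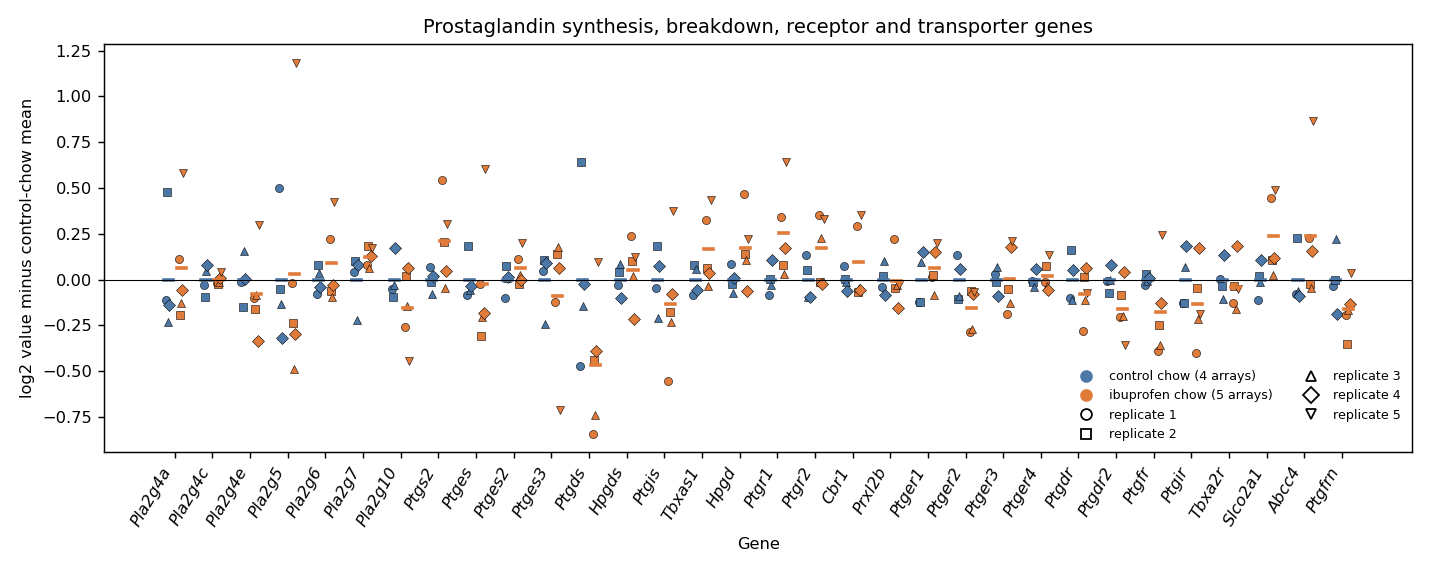
Log2 value minus the control-chow mean (vertical axis) of the measured prostaglandin synthesis, breakdown, receptor and transporter genes (horizontal axis), with 1 point per wild-type array shaped by replicate and a bar at each group mean. The groups overlap for every gene, and replicate 5 is the highest ibuprofen point for several, such as Pla2g5 at 9.44.

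Other lipid genes that ibuprofen could reach were looked at next, by the lists of their pathways. Acyl-CoA synthetases and enzymes that handle ibuprofen had a median difference of 0.059 with 12 of 17 above 0, 0.042 without replicates 1 and 5 and -0.0081 with centred arrays. In it Acsl4, which activates arachidonic acid, differed by 0.12 ± 0.056 (SE), Amacr, the racemase that turns over the R form of ibuprofen, by 0.23 ± 0.092 (SE) and the thioesterase gene Acot1 by 0.28 ± 0.13 (SE). These were its 3 members higher at an unadjusted p under 0.05, beside 9.08% of all genes, and they gave 0.17, 0.066 and 0.042 without replicates 1 and 5. PPAR receptors and their fat-oxidation targets had a median difference of 0.051 with 18 of 24 above 0, -0.040 without replicates 1 and 5 and -0.016 with centred arrays. None of them had an unadjusted p under 0.05. Pparg and Ppara differed by -0.011 ± 0.12 (SE) and 0.067 ± 0.10 (SE), and Cd36, a fatty acid carrier, by 0.27 ± 0.14 (SE), or -0.17, -0.11 and 0.16 without replicates 1 and 5. Lipoxygenase and leukotriene genes had a median difference of 0.10 with 9 of 12 above 0, -0.0074 without replicates 1 and 5 and 0.035 with centred arrays. Cholesterol synthesis genes had a median difference of 0.11 with 20 of 20 above 0, 0.012 without replicates 1 and 5 and 0.041 with centred arrays. Of these 19 were brighter than the median, where 8370 of 9969 genes lay above 0. Ebp, a sterol isomerase, had the largest difference of that list at 0.34 ± 0.10 (SE), or 0.16 without replicates 1 and 5.

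Lists of genes that mark the cell types and layers of the hippocampus were looked at next. CA1 pyramidal cell markers had a median of 0.19 with 9 of 10 above 0, and dentate granule cell markers 0.17 with 15 of 17, against 0.052 and 66.8% over all genes. Of these lists 9 and 15 members were brighter than the median, where the median difference was 0.086 and 8370 of 9969 genes lay above 0. None passed the adjusted threshold. At an unadjusted p under 0.05, 4 of the CA1 and 6 of the dentate genes lay higher, beside 9.08% of all genes and 14% of the brighter genes. Without ibuprofen replicates 1 and 5 the medians were 0.085 and 0.093 (0.017 for the brighter genes), and with arrays centred on their medians 0.12 and 0.10. Zbtb20, a transcription factor that specifies CA1 neurons, read 12.01, 12.01, 11.83 and 11.96 on control chow and 12.17, 12.17, 12.21, 12.08 and 12.03 on ibuprofen chow, a difference of 0.18 ± 0.050 (SE) with no overlap, and 0.20 without those arrays. Prox1, the factor that keeps granule cell identity, differed by 0.17 ± 0.082 (SE), Sema5a, a guidance cue, by 0.23 ± 0.11 (SE) and Rfx3 by 0.15 ± 0.071 (SE), the last pair without overlap. Leaving out replicates 1 and 5 gave 0.10, 0.16 and 0.15. Dsp, a desmosome gene and granule cell marker, gave 0.28 ± 0.20 (SE), and Tdo2, the tryptophan dioxygenase of granule cells, -0.039 ± 0.30 (SE) (0.25 and 0.10 without those arrays). CA2 and CA3 markers had a median of 0.061, 0.027 without those arrays and -0.0060 with centred arrays. In that list Amigo2, a CA2 adhesion gene, gave 0.30 ± 0.12 (SE), and Iyd, an iodotyrosine deiodinase, 0.19 ± 0.13 (SE) without overlap, or 0.12 and 0.12 without replicates 1 and 5.

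Markers of neighbouring regions gave smaller medians than the CA1 and dentate lists. Neocortex and subiculum markers had a median of -0.074 with 3 of 16 above 0, -0.10 without replicates 1 and 5 and -0.14 with centred arrays. Thalamus and habenula markers stood at -0.0023 and striatal markers at 0.032, -0.051 and -0.045 without those arrays and -0.069 and -0.035 with centred arrays. Penk, the proenkephalin gene, differed by -0.012 ± 0.14 (SE), or -0.12 without replicates 1 and 5. Where the dissection ended is not in the labels, and its part was not tested.

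For 8 of 34 voltage-gated channel genes all ibuprofen arrays exceeded all controls (23.5%, against 1.94% of all genes and 3.34% of genes brighter than the median, where 32 of them fell). The median of the list was 0.080, 0.038 without replicates 1 and 5 and 0.013 with centred arrays. The sodium channel gene Scn8a read 11.61, 11.64, 11.67 and 11.60 on control chow and 11.72, 11.79, 11.81, 11.72 and 11.89 on ibuprofen chow, a difference of 0.16 ± 0.052 (SE), and its auxiliary subunit gene Scn2b differed by 0.13 ± 0.048 (SE). The potassium channel genes Kcna4 and Kcnc2 gave 0.29 ± 0.088 (SE) and 0.18 ± 0.068 (SE). The calcium channel genes Cacna1c, Cacna1d, Cacna1e and Cacna1h gave 0.15, 0.22, 0.12 and 0.18. Without replicates 1 and 5 these 8 genes ran from 0.069 to 0.16. Scn3a was the largest of the list at 0.29 ± 0.092 (SE), with overlap.

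Glutamate receptor genes had 4 of 33 without overlap, beside 1.94% of all genes and 3.34% of genes brighter than the median, and a median of 0.042, below that of all genes (0.029 without replicates 1 and 5 and -0.025 with centred arrays). Grm5, the metabotropic receptor 5 of dendritic spines, read 12.54, 12.55, 12.43 and 12.61 on control chow and 12.65, 12.67, 12.66, 12.63 and 12.76 on ibuprofen chow, a difference of 0.15 ± 0.044 (SE). The NMDA receptor subunits Grin2b and Grin2a differed by 0.14 ± 0.049 (SE) and 0.11 ± 0.048 (SE) and the kainate receptor gene Grik2 by 0.11 ± 0.052 (SE). These differences were 0.12, 0.16, 0.12 and 0.15 without replicates 1 and 5. Gria1, the main AMPA receptor subunit, gave 0.10 ± 0.040 (SE). In the GABA and interneuron list, 2 of 28 did not overlap, beside the same shares: Nos1, the neuronal nitric oxide synthase, at 0.18 ± 0.076 (SE) and Cnr1, the cannabinoid receptor of presynaptic terminals, at 0.15 ± 0.063 (SE). Gabrb1, a GABA-A receptor subunit, gave 0.19 ± 0.064 (SE) with overlap. These 3 were 0.10, 0.10 and 0.17 without replicates 1 and 5. Of 26 vesicle genes 2 did not overlap, again beside 1.94% of all genes and 3.34% of genes brighter than the median. They were Syp, a vesicle membrane protein, at 0.063 ± 0.030 (SE) and Pclo, an active zone scaffold, at 0.10 ± 0.048 (SE) (0.049 and 0.10 without those arrays), though Syp stood at -0.0039 with centred arrays.

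Immediate early genes, which synaptic activity induces, had a median below that of all genes. Of 28 such genes 13 lay above 0, with a median of -0.011, and -0.077 with centred arrays. In the fit without ibuprofen replicates 1 and 5 the median was -0.12 with 3 above 0, beside 51.3% of all genes. Fos read 7.59, 7.93, 8.39 and 7.78 on control chow and 7.59, 7.51, 7.69, 7.82 and 7.67 on ibuprofen chow, a difference of -0.27 ± 0.13 (SE). Arc, which trims AMPA receptors from active synapses, read 10.45, 10.88, 11.08 and 10.41 and 10.52, 10.45, 10.52, 10.50 and 10.59, a difference of -0.19 ± 0.13 (SE). In both, control replicate 3 was the highest array and the ibuprofen arrays overlapped the rest of the controls. Nr4a1, a nuclear receptor induced with them, differed by -0.23 ± 0.10 (SE) and was the only member at an unadjusted p under 0.05. With 1 array left out in turn the list's median was above 0 without control replicate 2 or 3 or ibuprofen replicate 2, 3 or 4, and it ran from -0.073 to 0.026.

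No gene of immune cells passed the adjusted threshold either. Homeostatic microglia markers had a median of 0.12 with 14 of 17 above 0. Microglia and macrophage markers had 0.10 with 16 of 16, beside 66.8% of all genes. Of these lists 15 and 10 members were brighter than the median, where the median difference was 0.086 and 8370 of 9969 genes lay above 0. Without ibuprofen replicates 1 and 5 the list medians were 0.044 and -0.0077. With centred arrays these medians were 0.052 and 0.035. Itgam, the integrin CD11b of microglia, differed by 0.29 ± 0.10 (SE) without overlap and P2ry13, a nucleotide receptor of resting microglia, by 0.30 ± 0.12 (SE). Csf1r, the receptor microglia need to survive, gave 0.15 ± 0.065 (SE). These 3 were 0.12, 0.071 and 0.12 without replicates 1 and 5. Genes of plaque-associated microglia had a median of 0.064 (-0.022 without those arrays). Cst7, a cystatin of such cells, differed by 0.0049 ± 0.12 (SE), and Lpl, a lipase, by 0.21 ± 0.12 (SE) without overlap (0.034 and 0.15 without those arrays).

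Cytokine and chemokine genes had a median of 0.048 with 17 of 26 above 0, -0.015 without replicates 1 and 5 and -0.019 with centred arrays. Il6 gave 0.13 ± 0.060 (SE) and Ccl2 -0.21 ± 0.10 (SE), each at an unadjusted p under 0.05, while Il1b gave -0.15 ± 0.085 (SE) and Tnf 0.0071 ± 0.087 (SE). Without those arrays these 4 were 0.068, -0.13, -0.067 and 0.060. Complement and Fc receptor genes stood at 0.075, antigen presentation genes at -0.032, interferon response genes at -0.031 and perivascular macrophage and leukocyte markers at -0.0058. Without replicates 1 and 5 these were -0.035, -0.067, -0.13 and -0.019. Astrocyte markers had a median of 0.067 and reactive astrocyte genes 0.019 (0.029 and -0.073). Gfap, the astrocyte filament, differed by 0.16 ± 0.17 (SE).

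Of the other cells, oligodendrocyte precursors had a median of 0.17 with 11 of 11 above 0, beside 66.8% of all genes. Of genes brighter than the median, where 9 of them fell, 8370 of 9969 lay above 0. Of the precursor markers 3 did not overlap, beside 1.94% of all genes and 3.34% of the brighter genes. They were Tnr, a matrix glycoprotein of perineuronal nets, at 0.20 ± 0.061 (SE), Vcan, a matrix proteoglycan, at 0.30 ± 0.12 (SE) and Lhfpl3 at 0.18 ± 0.072 (SE). These were 0.18, 0.15 and 0.11 without replicates 1 and 5. The median was 0.022 without replicates 1 and 5 and 0.10 with centred arrays. Oligodendrocyte and myelin markers, 18 of them brighter than the median, had 21 of 22 above 0. Their median was 0.083, 0.029 without those arrays and 0.017 with centred arrays. With the mean of those myelin markers as a covariate 559 genes had an unadjusted p under 0.05, against 2198 without it, and 85.9% of them lay higher. That mean was itself 10.34 ± 0.037 on control (SD, n = 4) and 10.44 ± 0.10 on ibuprofen chow (SD, n = 5). The covariate thus varied with chow, and what it stands for was not tested. Endothelial genes had a median of 0.094 (-0.033 without those arrays), mural and meningeal genes -0.043 (-0.14) and ependymal genes 0.093 (-0.074). Choroid plexus markers had a median of 0.12, but -0.38 without replicates 1 and 5. Ttr, their most abundant transcript, read 13.93, 12.19, 10.61 and 10.66 on control and 12.03, 11.25, 10.56, 10.75 and 13.72 on ibuprofen chow. Its spread within each chow was larger than the distance between the chows.

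Genes of amyloid handling were near the level of all genes, with a median of 0.066 (0.038 without replicates 1 and 5 and -0.0013 with centred arrays) and 22 of 24 above 0. Of the list 22 were brighter than the median, where 8370 of 9969 genes lay above 0. App, the amyloid precursor gene, read 13.21, 13.22, 13.22 and 13.16 on control and 13.26, 13.16, 13.25, 13.17 and 13.40 on ibuprofen chow, a difference of 0.045 ± 0.037 (SE), -0.0076 without replicates 1 and 5 and -0.022 with centred arrays. Prnp gave 0.031 ± 0.035 (SE), or -0.036 with centred arrays, and Aph1c, a subunit of gamma-secretase, 0.25 ± 0.11 (SE). The glucocorticoid-responsive list, with 13 genes brighter than the median, had 17 of 17 above 0 with a median of 0.10 (0.061 without those arrays and 0.031 with centred arrays). In it Mt2, a metallothionein, gave 0.10 ± 0.046 (SE), and Fkbp5, a chaperone that steroids induce, gave 0.21 ± 0.10 (SE), or 0.061 and 0.11 without those arrays. Clock genes had a median of 0.050, the heat shock and unfolded protein response 0.050, oxidative stress genes 0.078 and respiratory chain subunits 0.059. In the fit without those arrays these 4 medians were 0.0026, 0.026, -0.024 and -0.022, and with centred arrays -0.017, -0.017, 0.011 and -0.0079. Among the clock genes Clock itself gave 0.12 ± 0.054 (SE) (0.15 without those arrays).

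Medians nearer to 0 were those of neurotrophins and their receptors at 0.025, opioid and granule cell peptides at 0.042, the kynurenine pathway at 0.0076, Wnt antagonists and targets at 0.019 and ribosomal proteins at -0.021. Neurogenesis markers stood at 0.058. Leaving out replicates 1 and 5 gave these 6 medians as -0.049, -0.030, -0.011, -0.014, -0.069 and 0.024, and with centred arrays -0.042, -0.025, -0.059, -0.048, -0.087 and -0.0091, in that order. Ntrk3, the receptor of neurotrophin 3, differed by 0.13 ± 0.051 (SE) and Igf1r, the insulin-like growth factor receptor, by 0.21 ± 0.076 (SE), both without overlap. Ngfr, a receptor shared by the neurotrophins, differed by -0.18 ± 0.074 (SE) and was lower in every ibuprofen array. Frzb, a secreted Wnt antagonist, differed by 0.28 ± 0.14 (SE) without overlap. For these 4 genes the fit without those arrays gave 0.12, 0.11, -0.13 and 0.24. In all, 38 of 50 lists had a median above 0 with all arrays, 22 without replicates 1 and 5 and 15 with arrays centred on their medians. No list had a member past the adjusted threshold.

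**Figure D4:**
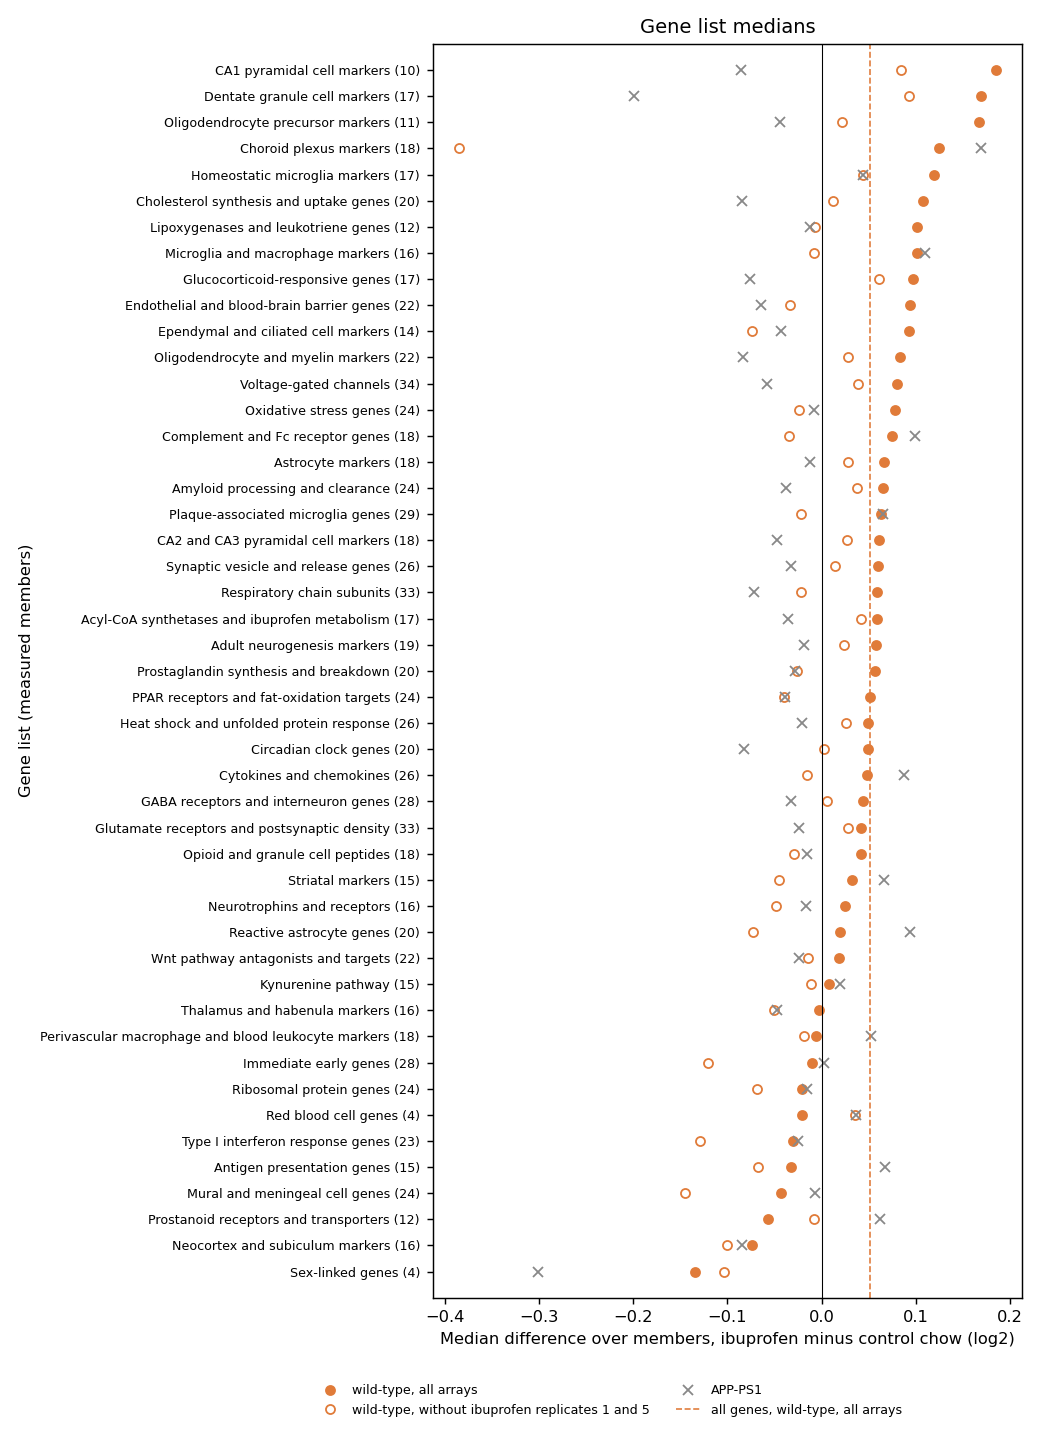
Median over the measured members of each of the gene lists shown (vertical axis, with their number) of the ibuprofen minus control difference (log2, horizontal axis) in wild-type mice with all arrays (filled), without ibuprofen replicates 1 and 5 (open) and in APP-PS1 mice (crosses). The dashed line is the median of all genes in wild-type mice (0.052), and the open points lie to the left of the filled ones in most lists, as for choroid plexus markers (-0.38 against 0.12).

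The genes named above are often long, and gene length was therefore set against the difference over protein-coding genes brighter than the median, a comparison chosen after the values were seen. Every ibuprofen array lay above every control array for 1.54% of 2144 genes under 10 kb, 1.8% of 3060 from 10 to 30 kb, 3.85% of 2910 from 30 to 100 kb, 5.94% of 1228 from 100 to 300 kb and 13.7% of 422 over 300 kb. Without ibuprofen replicates 1 and 5 the shares of the shortest and longest groups were 1.77% and 20.6%. With each wild-type array left out in turn the share of the longest ran from 14.5% to 22.3% and that of the shortest from 1.59% to 4.9%, since fewer arrays overlap less often. The size of the difference told less, with medians of 0.078 for the shortest and 0.088 for the longest genes, and -0.0064 and 0.046 without replicates 1 and 5. The longer genes were also brighter, with median levels of 9.97 and 10.47. Brightness and length were not separated.

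Array by array, the shift of the longest genes less that of the shortest was 0.021, 0.087 and 0.017 in ibuprofen replicates 2, 3 and 4 and -0.040 and -0.037 in replicates 1 and 5. In the 4 controls it lay between -0.0066 and 0.014. It was largest in replicate 3 and below 0 in replicates 1 and 5. Of the 58 genes over 300 kb without overlap, some with known roles at neuronal membranes are the netrin receptor gene Unc5c, Robo1, a receptor for guidance cues, Lrp1b, Synpr and Ryr2, the calcium release channel. Their differences were 0.22, 0.24, 0.23, 0.22 and 0.20, and 0.092, 0.093, 0.18, 0.14 and 0.16 without replicates 1 and 5. These 5 were chosen after their values were seen.

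**Figure D5:**
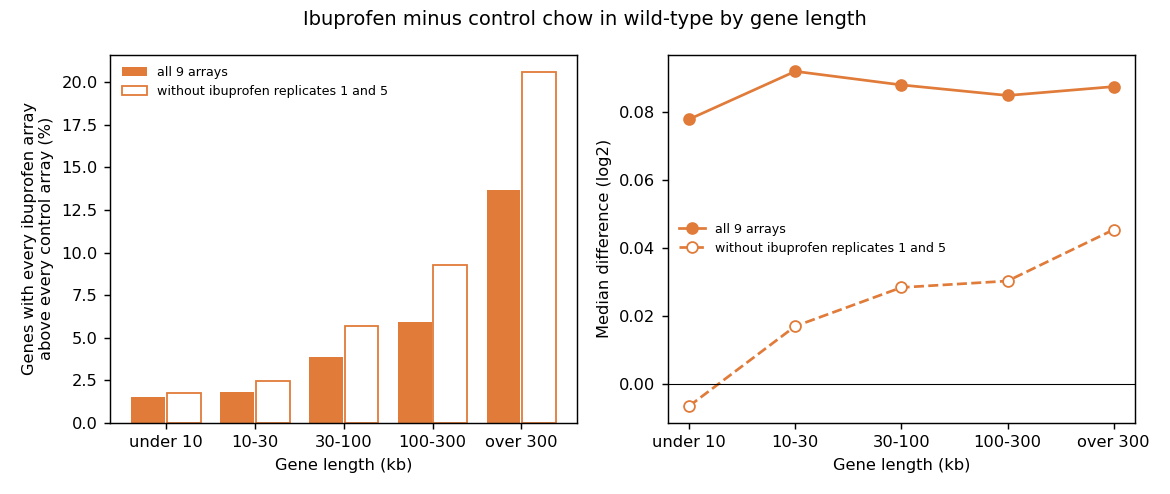
Left, share of genes with every ibuprofen array above every control array (percent, bars), and right, median difference (log2, points), by gene length in kb, for protein-coding genes brighter than the median, with all 9 arrays (filled) and without ibuprofen replicates 1 and 5 (open). The share climbs from 1.54% to 13.7% with all arrays, while the median difference stays between 0.078 and 0.092 with all arrays.

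Whether the wild-type response differs from that of APP-PS1 mice was tested by the interaction of chow and genotype. In APP-PS1 mice 1292 genes (6.48%) had an unadjusted p under 0.05, 1.82% higher and 4.66% lower, and 0% an adjusted one. There 41.8% of genes lay above 0, and the groups did not overlap for 0.507% on the higher and 2.27% on the lower side. For the interaction no gene passed (0% called, smallest limma adjusted p = 0.208). At an unadjusted p under 0.05 there were 4087 genes (20.5%), of which 3190 (16% of all) had the higher difference in wild-type mice and 897 (4.5%) the lower. The difference was higher in wild-type mice for 64.4% of all genes. Without ibuprofen replicates 1 and 5 and APP-PS1 control replicate 1 there were 1836 (9.21%, 6.79% higher and 2.42% lower), and 49.2% of genes were higher in wild-type mice. The comparisons in the 2 genotypes share no array. Across the 19938 genes their differences correlated at -0.52 (Pearson), -0.25 without ibuprofen replicates 1 and 5 and -0.16 without all 3 arrays that stand apart. This is a description across genes, which are not independent replicates and share their arrays. Arrays that were kept also shifted with brightness. APP-PS1 ibuprofen replicate 4 lay at -0.078 in the brighter and 0.13 in the dimmer genes, and wild-type control replicate 4 at -0.042 and 0.063. Their part in these correlations was not tested. The median over all genes was 0.052 in wild-type and -0.021 in APP-PS1 mice.

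Iqgap2 had the smallest p for the interaction. It averaged 11.36 ± 0.079 for wild-type controls (SD, n = 4), 11.59 ± 0.067 for wild-type mice with ibuprofen (SD, n = 5), and 11.47 ± 0.053 and 11.33 ± 0.060 for APP-PS1 controls and treated mice (SD, n = 5 each). The ibuprofen differences were 0.23 and -0.14, and their difference 0.36 ± 0.067 (SE). Cdh8, a cadherin of synapses, averaged 10.98 ± 0.047 for wild-type controls (SD, n = 4), 11.14 ± 0.085 for wild-type mice with ibuprofen (SD, n = 5), and 11.09 ± 0.076 and 10.85 ± 0.073 for APP-PS1 controls and treated mice (SD, n = 5 each), with 0.16 and -0.24 and a difference of 0.39 ± 0.074 (SE). In each gene the mean on ibuprofen was above that on control chow in wild-type and below it in APP-PS1 mice, and the APP-PS1 control mean was above the wild-type control mean.

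The others of smallest p had the same pattern, higher on ibuprofen in wild-type and lower in APP-PS1 mice. So did 49.5% of all genes, or 30.4% without the 3 arrays that stand apart. Picking genes by the interaction also favours differences of opposite sign, so the pattern is not particular to these genes. Kctd4 gave 0.19 and -0.28, Cap2, an actin-binding gene, 0.13 and -0.15, and Plcl1 0.32 and -0.17. Gjc3, a connexin of oligodendrocytes, gave 0.21 and -0.25, Jph1, a junctophilin that ties the endoplasmic reticulum to the cell membrane, 0.16 and -0.35, and Crot 0.29 and -0.18. The interaction differences of these 6 ran from 0.27 ± 0.055 (SE) to 0.51 ± 0.11 (SE), all at limma adjusted p = 0.208. Without the 3 arrays they ran from 0.21 to 0.49. By list, dentate granule cell markers had medians of 0.17 in wild-type and -0.20 in APP-PS1 mice, and CA1 markers 0.19 and -0.085. Genes brighter than the median had 0.086 and -0.061. Genes of microglia and macrophages stood at 0.10 and 0.11, and prostaglandin synthesis genes at 0.057 and -0.029. Without ibuprofen replicates 1 and 5 the wild-type medians were 0.093, 0.085, 0.017, -0.0077 and -0.026, in that order. Tdo2, Dsp and Penk, which had large differences in APP-PS1 mice at -1.33, -0.93 and 0.75, gave -0.039, 0.28 and -0.012 in wild-type mice, with interaction limma adjusted p of 0.208, 0.208 and 0.208.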

How the data were processed

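Hippocampal RNA was measured on 19 Affymetrix arrays. Each deposited value is a log2 intensity of 1 probe set. The submitters' processing notes name Partek 6.5 and the RMA method for what the authors did, whose settings are not given in the sources used here. Array medians ran from 8.06 to 8.142. The number of arrays limits the precision.

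Of 35556 probe sets an annotation of the array gave 1 gene symbol to 21789, several to 1621, and left 12146 unnamed. RefSeq (GRCm38.p6) held 21698 of those with 1 symbol. Each of 19938 genes was represented by its single-symbol probe set of highest mean, with no filter. A limma 3.58.1 fit (R 4.3.3) held the 4 group means over all 19 arrays with an intensity trend (15 residual degrees of freedom). Tests were two-sided, adjusted by Benjamini and Hochberg over all genes, and the fit was tested on simulated data. A difference is given with its standard error from limma (SE) and a mean with its standard deviation (SD).

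The lists (50, with 913 of 1018 genes measured) and the comparison were chosen with earlier results of these data known. They are described by counts and medians without a set test, and 1 list is not reported here. Most genes were named by rule: the 12 smallest p each way, the 8 smallest for the interaction, list members without overlap or with p under 0.01, the extremes of lists described, prostaglandin genes and a few set ones such as App and Fos. Not every gene it picks is described. Others (such as Pparg, Ppara, Il1b, Tnf, Fkbp5, genes around or beside microRNA genes and the 5 long genes) were chosen after their values were seen. Predicted genes are not named. Gene lengths are RefSeq spans. MicroRNA sequences are from RefSeq (271 of 297 microRNA genes matched). By the check for pairing, the deviations of same-numbered control and ibuprofen arrays correlated at 0.10, -0.25, -0.013 and 0.60 for numbers 1 to 4. They were not treated as pairs, though the arrays numbered 4 shared a shift with brightness. It was -0.042 and -0.021 in the brighter and 0.063 and 0.037 in the dimmer genes, for control and ibuprofen chow. A fit with the replicate number as a block is given below. Figures used Python 3.11.15 and matplotlib 3.10.9.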

Additional observations from a re-analysis of the deposited data

Results flagged for a closer look

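For 23 of the 212 groups of arrays examined over the named genes, 1 array lay far from the others, by its gap to the nearest array over the range of the group. Chance gives about 1 in 20, and genes measured on the same arrays are not separate. Wild-type ibuprofen chow replicate 5 accounts for 8 and wild-type control chow replicate 3 for 5. The log2 values of wild-type control chow replicate 1 far from their group were Cacna1h at 10.18 (nearest 10.30) and Syp at 13.09 (nearest 13.14). The log2 values of wild-type control chow replicate 2 far from their group were Abcc4 at 9.17 (nearest 8.88), Cacna1d at 9.60 (nearest 9.70), Tnfrsf11b at 7.96 (nearest 7.60) and Vmn1r48 at 5.46 (nearest 5.23). The log2 values of wild-type control chow replicate 3 far from their group were Cntnap5c at 9.51 (nearest 9.62), Grin2b at 12.14 (nearest 12.35), Iyd at 8.09 (nearest 8.13), Kctd4 at 10.85 (nearest 11.01) and Ptges3 at 11.86 (nearest 12.15). In wild-type control chow replicate 4 the far value was App at 13.16 (nearest 13.21). In wild-type ibuprofen chow replicate 1 the far value was Ctxn3 at 7.38 (nearest 7.89). In wild-type ibuprofen chow replicate 3 the far value was Grik2 at 11.32 (nearest 11.16). In wild-type ibuprofen chow replicate 4 the far value was Cst7 at 7.27 (nearest 7.06). The log2 values of wild-type ibuprofen chow replicate 5 far from their group were Atp8a1 at 12.34 (nearest 12.23), Cacna1h at 10.75 (nearest 10.41), Cnr1 at 10.92 (nearest 10.72), Fam124a at 9.15 (nearest 9.41), Lhfpl3 at 10.09 (nearest 9.79), Lpl at 10.29 (nearest 10.08), Nos1 at 11.09 (nearest 10.82) and Pla2g5 at 9.44 (nearest 8.24).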

How the results depend on the processing

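The absence of genes past the adjusted threshold in wild-type mice held under every alternative run except array weights, where limma called 2 genes, Mir488 (adjusted p = 0.0162 to 0.941 over the alternatives) and Epha6 (adjusted p = 0.0236 to 1). The lowest of each is with array weights. Array weights gave 174 calls for the interaction, and leaving out each array in turn gave 0 to 13, the highest without APP-PS1 ibuprofen chow replicate 2. Genes at an unadjusted p under 0.05, 2198 as reported, numbered 953 with only wild-type arrays fitted, 559 with the oligodendrocyte covariate, 471 without ibuprofen replicates 1 and 5 and 692 without the 3 arrays that stand apart. With each wild-type array left out it ran from 926 to 4564. It was 2038 with the replicate number as a block, which gave 0 calls and changed no call for any result, 2859 with a sex-linked covariate and 2391 with a choroid plexus covariate. As all wild-type arrays read as male, the sex-linked covariate does not separate sexes among them. Of 106 named genes 94 kept their direction or moved by less than their standard error under every alternative. Only changes of sign that moved by more than the standard error are listed next, and other named genes changed sign by less. Of the opposite sign with centred arrays were App at -0.022, Prnp at -0.036, Ptger4 at -0.046 and Syp at -0.0039. Of the opposite sign with array weights were App at -0.022, Cbr1 at -0.065, Pla2g10 at 0.0065, Pla2g4a at -0.17, Pla2g5 at -0.40, Pla2g6 at -0.031, Prnp at -0.012, Ptges3 at 0.085 and Ptgr2 at -0.0052. Of the opposite sign without ibuprofen replicates 1 and 5 were App at -0.0076, Cbr1 at -0.057, Pla2g4a at -0.13, Pla2g5 at -0.34, Pla2g6 at -0.063 and Ptges3 at 0.13, with the same values without the 3 arrays. Of the opposite sign with the oligodendrocyte covariate was Ptgdr at 0.026. Of the opposite sign without ibuprofen replicate 5 was Ptges3 at 0.066. Under quantile normalization 48 of 50 list medians kept their sign, with centred arrays 27. The cause of these was not tested. The number of arrays limits what could be called.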
